A study of Mus musculus with 5 samples.

Results

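Ctr9, Paf1, Leo1, Cdc73 and Rtf1 encode subunits of the Paf1 complex, and they were examined in tissue holding the pharyngeal arches of wild-type mouse embryos at E10.5. Members were taken as every probe set of the array annotated to exactly 1 of these 5 genes. That gave 3 measured genes of 12393 and 9 of 22690 probe sets: 4 for Ctr9, 4 for Cdc73 and 1 for Paf1. No probe set carried the name of Leo1 or Rtf1 alone in the annotation used here, so both were not analysed. Ctr9 was chosen from these same arrays because 1 of its probe sets varied strongly between them. Its values are therefore given as a description, and no p-value, call or count that includes Ctr9 is evidence about it.

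The study profiled 5 samples, each an individual tissue isolate and all of 1 group, on Affymetrix Mouse Genome 430A arrays, which hold sets of short probes against each transcript. The strain was 129P2/OlaHsd, with 2 generations of backcross to C57BL/6, and the labels name the tissue as containing the second heart field, the progenitors that lengthen the heart tube. The labels name no mutant, treated or control group, so the only differences open to study are those between isolates. The starting amount per isolate was 10 ng of RNA, amplified before labelling per the labels' protocols. Whether the isolates came from separate litters is not stated, and the spread between them may be partly technical.

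The Paf1 complex travels with RNA polymerase II along transcribed genes. It helps release the paused polymerase, promotes the attachment of ubiquitin to histone H2B and the methylation of histone H3 that follows, and takes part in the processing of transcript ends. CTR9 is the large scaffold subunit built of tetratricopeptide repeats, PAF1 and LEO1 form a pair that contacts the polymerase, CDC73 (parafibromin) is a tumour suppressor, and RTF1 carries the part that stimulates H2B ubiquitination. In zebrafish, mutants of several of these genes have defects of the heart and neural crest. In metazoans SKI8, encoded by Skic8 and listed on this array under its older symbol Wdr61, is a further subunit that is shared with the cytoplasmic SKI complex of RNA decay.

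Values are scaled linear signals, with 1 value for each probe set on each array. Probe sets bind with different strength, so the signals of different probe sets do not rank the abundance of their transcripts. A background level was set on each array as the 95th percentile of 181 probe sets of gene families such as olfactory receptors and hair keratin-associated proteins. It was a signal of 17.5, 16.2, 18.2, 22.4 and 23.3 in replicates 1 to 5, and the excess of a probe set is its mean log2 signal above that level. The median signal over all probe sets ran from 28.1 to 32.2. Of the markers chosen to check the tissue, all 5 of crest and arch mesenchyme and 3 of 4 of the second heart field were above background, with Tbx1 the exception. Markers of red blood cells (3 of 4), neurons (4 of 4), endothelium (3 of 4) and epithelium (4 of 4) were also above it, so the tissue was mixed. Of the leukocyte markers 1 of 4 was above it, Coro1a, while Ptprc, Csf1r and Tyrobp were not. In such bulk samples, fewer cells of a type and less RNA per cell cannot be told apart. Replicate 4 was the only array with a high signal of Xist, the RNA of the inactive X chromosome (916 against 26.3 or less elsewhere). The other sex-linked markers were lowest in that array. Eif2s3y gave 20.1 there against 769 to 968 elsewhere, and Kdm5d 17.5 against 120 to 201.

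Ctr9 carried the widest differences between arrays of the 3 measured subunit genes. The probe set 1422679_s_at gave 1009.85 in replicate 1, 1152 in replicate 2, 56.4 in replicate 3, 1089.6 in replicate 4 and 828 in replicate 5. Replicate 3 stood alone at the bottom, far from the other 4 arrays, which lay close together at 1019.97 ± 140.4 (SD, n = 4). It was 18.6-fold below the median of the others, a log2 difference of -4.22, while the SD among those 4 arrays was 0.21 log2 units. The signal in replicate 3 was still above the background level of that array, 18.2.

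The 2 other Ctr9 probe sets above background were not low in replicate 3. Probe set 1422681_at gave 65.2, 78.1, 97.9, 61.2 and 56.9 in replicates 1 to 5. Its highest value fell in replicate 3, 0.63 log2 units above the median of the other arrays. Probe set 1422680_at gave 38.5, 31.7, 38.2, 66.2 and 33.1, and replicate 3 lay 0.10 log2 units above the median of the others. Probe set 1448076_at gave 18.7, 17.1, 19.4, 34.6 and 19.4, with replicate 3 at 0.03 log2 units above that median. The last set was not above background over the arrays (excess 0.13), so a fall in it could not be told from background signal. In Affymetrix naming, the ending _s_at marks a set whose probes match more than 1 transcript, and a plain _at marks probes chosen as particular to 1 transcript. In the annotation, 1422679_s_at, 1422680_at and 1422681_at come from the same source sequence, and 1448076_at comes from another.

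**Figure D1:**
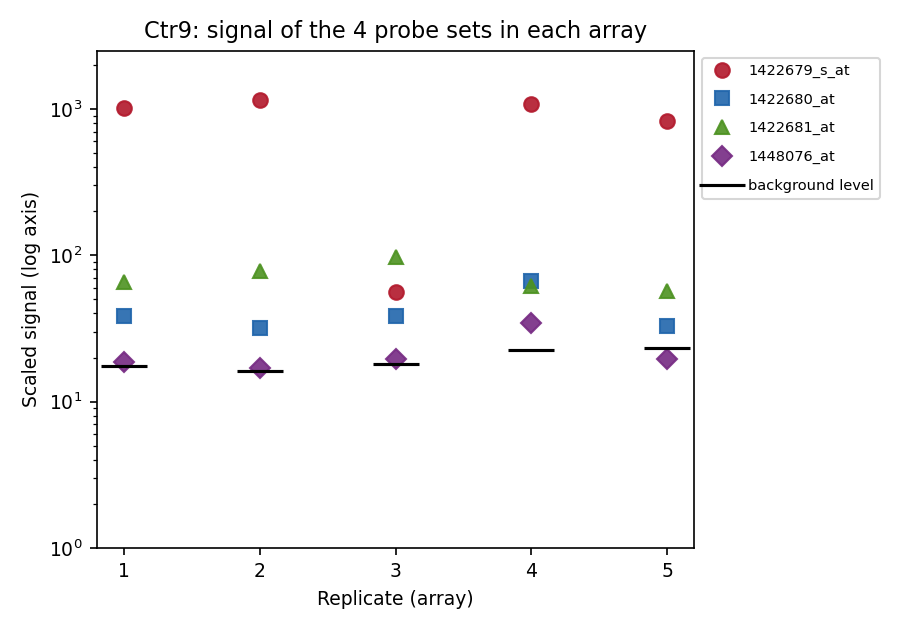
Scaled signal (log axis) of the 4 Ctr9 probe sets in each of the 5 arrays, with a black dash for the background level of the array. The set 1422679_s_at falls to 56.4 in replicate 3 against 828 to 1152 elsewhere, while the set 1422681_at is highest there at 97.9.

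A second pattern within Ctr9 involved replicate 4. The sets 1422680_at and 1448076_at were both highest in that array, 0.79 and 0.83 log2 units above their medians, and their other 4 values lay close together. The profiles of this pair across the arrays differed by a root mean square of 0.11 log2 units after centring on the median. Only the first of the pair was above background, so the log2 values of the second rest on signals near the background level. Between 1422679_s_at and each of the remaining Ctr9 sets the same measure was 1.90 to 2.13, and between 1422681_at and that pair it was 0.53 and 0.54. The 1422679_s_at set was not raised in replicate 4 beyond its range elsewhere, with 1089.6 against 1152 in replicate 2. Replicate 4 was also the array with high Xist and had the second highest background level, and the part of either in these values was not tested.

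Drops of this size in a single array were uncommon, and the Ctr9 set was the brightest case in replicate 3. Over the whole table, 10231 probe sets lay above the background level in all of replicates 1, 2, 4 and 5. Of these, 9 (0.0880%) were at least 3 log2 units lower in replicate 3 than the median of the other arrays, and 27 (0.264%) at least 2 log2 units lower. Ctr9 had the largest drop of the 9. The median signals of the other 8 in the remaining arrays were only 28.8 to 53.0, against 1049.7 for Ctr9. In each other array in turn, 5 to 17 probe sets dropped by 3 log2 units, the most in replicate 4. These counts describe how Ctr9 was picked and are no separate evidence about it.

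A limit of 500 for the median signal in the remaining arrays, chosen after the data were seen, leaves 1970 probe sets for replicate 3. Among them Ctr9 was the 1 probe set lower by 2 log2 units or more. The same limit gave 3 drops of 3 log2 units in replicate 4, the array with high Xist, and none in replicates 1, 2 and 5. The largest in replicate 4 was that of the Y-linked gene Eif2s3y (5.33 log2 units). Another was that of Pclaf, which is not among the sex-linked markers, with 59.5 in replicate 4 and 563 to 1257 elsewhere. Its variance was 43.5 times the trend, against 49.98 for the Ctr9 set, so a bright fall in 1 array was not particular to Ctr9.

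**Figure D2:**
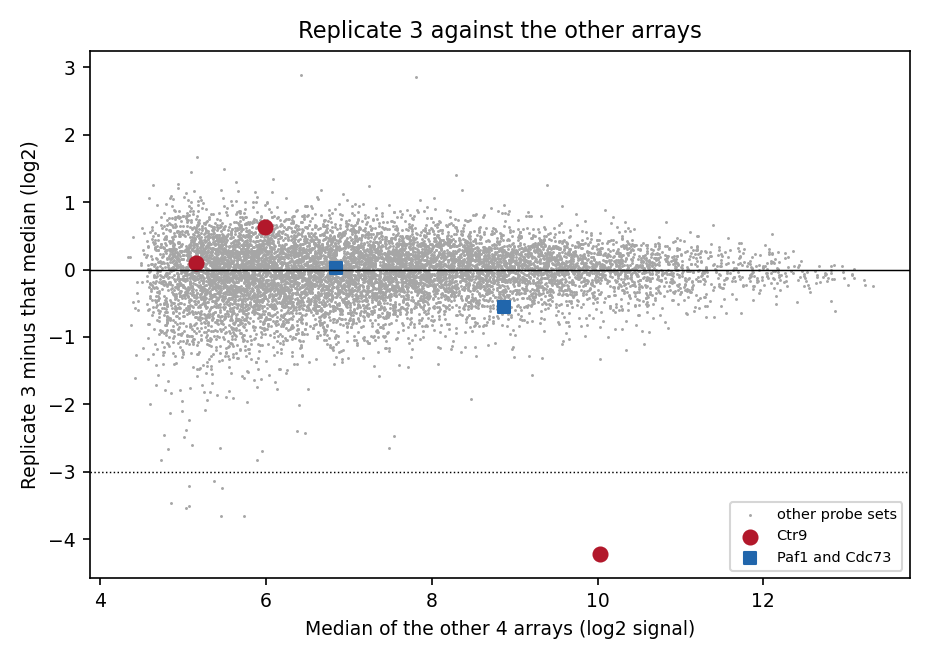
Each point is 1 of 10231 probe sets above background in the other 4 arrays; the horizontal axis is the median log2 signal of those arrays and the vertical axis is replicate 3 minus that median in log2 units. The dotted line marks -3; the Ctr9 set 1422679_s_at lies at -4.22, alone among bright probe sets, while 2 other Ctr9 sets (red) and the Paf1 and Cdc73 sets shown (blue squares) lie between -0.56 and 0.63.

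The next largest drops in replicate 3 belonged to genes of unlike function. They were Rpl39, a ribosomal protein gene (4.19 in replicate 3, 36.6 to 58.8 elsewhere), Wipf1, a regulator of actin assembly (drop of 3.65 log2 units), Eno2, the neuronal enolase (3.54), and Cd99, a cell surface protein (3.50). All 4 lay below the background level in replicate 3, while the Ctr9 set did not. For 3 of the 9 genes, namely Ctr9, Wipf1 and Mapkbp1, another probe set was above background in the other arrays. In none of these 3 genes was that other probe set lower by 2 log2 units in replicate 3.

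Few profiles resembled that of 1422679_s_at, which follows from its picking, since its value in replicate 3 weighs most in the measure. Likeness was measured as the root mean square difference of median-centred log2 signal over the 5 arrays, where a small value means a like profile. Of 11706 probe sets of other genes with a mean above background, 1 came within 0.5 log2 units, that of Rpl39 at 0.43. Ptcd2 (0.58), Mapkbp1 (0.59), Eno2 (0.61) and Cd99 (0.61) followed. All of these probe sets are among the 9 with a drop of at least 3 log2 units in replicate 3. Their signals outside replicate 3 were 18.7 to 58.8.

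Those genes beside Ctr9 on the chromosome that were above background did not share the drop. The nearest protein-coding genes with a probe set, in the order of the RefSeq annotation of GRCm38.p6, were Rnf141, Lyve1 and Mrvi1 on one side and Eif4g2, Usp47 and Dkk3 on the other. Eif4g2, an initiation factor relative, gave 1979 in replicate 3 and 1996 to 2570.4 elsewhere, and Usp47, a deubiquitinase, gave 1296 there and 1071 to 1505 elsewhere. Rnf141 (-0.03), Eif4g2 (-0.19), Usp47 (-0.02) and Dkk3 (-0.39) all lay within 0.5 log2 units of the median of the other arrays. Lyve1 and Mrvi1 were below background in every array, so a fall in them could not be told from background signal. Only 0.0880% of probe sets over the table dropped by 3 log2 units in replicate 3. The absence of a drop in so few neighbours therefore says little, and a cause in this region was not tested.

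The summed signals of several marker lists were highest or lowest in replicate 3. The summed signal of the neuron markers was 3304 in replicate 3 and 1978 to 3031 elsewhere, and that of the second heart field markers was 1988 and 1534 to 1842. The sum over crest and arch mesenchyme markers was 4719 in replicate 3 and 4778 to 5814 elsewhere, and the epithelial sum was 546 and 603 to 741. Red blood cell markers (13715), endothelial markers (574) and leukocyte markers (211) in replicate 3 lay within the range of the other arrays. Members of a list did not all move together: Isl1 was highest in replicate 3 (1663) and Mef2c lowest there (183), and the neuron markers Nefl and Tubb3 were highest in replicate 5. Each sum follows its brightest members, such as Isl1 with 1663 of the second heart field sum of 1988 in replicate 3. Replicate 3 was at an extreme in 4 of the 7 tissue lists and replicate 4 in 6 of them. Replicates 1, 2 and 5 were at an extreme in 2, 0 and 2. Every list has a highest and a lowest array, so such a count does not by itself set replicate 3 apart. The part of these marker differences in the drop of the Ctr9 set was not tested.

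Paf1 was measured by a single probe set, 1416874_a_at, whose ending marks probes shared by transcripts of 1 gene. It gave 355, 485, 318, 454 and 494 in replicates 1 to 5, or 421 ± 79.5 (SD, n = 5). Replicate 3 was again the lowest, but it lay only 0.56 log2 units under the median of the others and close to replicate 1. The mean excess over background was 4.42 ± 0.16 log2 units (SE) and passed (limma, one-sided, adjusted p = 2.65e-20 over 20380 probe sets). The signal was above the background level in all 5 arrays. Its variance between arrays was 1.08 times the trend of probe sets of like signal (F test against the limma trend, adjusted p = 0.987). A drop such as that of the Ctr9 set was therefore not measured for Paf1.

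Cdc73 was uneven between its probe sets. The set 1427971_at gave 158, 126, 117, 104 and 90.8 in replicates 1 to 5 (119 ± 25.5, SD, n = 5), an excess of 2.60 ± 0.19 log2 units. This mean excess passed (limma, adjusted p = 3.25e-13), and the signal was above the background level in every array. The set 1439103_at gave 38.1, 29.7, 38.1, 17.2 and 49.7, with replicate 4 the lowest and under the background level. Its mean excess of 0.76 ± 0.24 passed (limma, adjusted p = 0.00413).

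The remaining Cdc73 sets did not pass. The set 1427972_at gave 2.23, 19.0, 13.9, 14.9 and 26.3, and 1427973_s_at gave 13.2, 1.48, 10.1, 5.65 and 15.8. The first was above the level in 2 arrays and the second in 0, with mean excesses of -0.71 and -1.45 log2 units (limma, adjusted p = 1 for both). Each had a single very low value, in replicate 1 for the first and in replicate 2 for the second. All of them but 1439103_at come from the same source sequence in the annotation, and the root mean square differences among those 3 were 1.40 to 2.01 log2 units.

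Neither Cdc73 set above background varied beyond the trend. The variance ratio was 0.86 for 1427971_at and 1.62 for 1439103_at (F test against the limma trend, adjusted p = 0.987 for both). In replicate 3 the 2 sets lay 0.02 and 0.18 log2 units above the median of the other arrays. Over the whole table, 13 of 11710 probe sets (0.111%) passed this test. The Ctr9 set, which was picked by this measure, had a variance 49.98 times the trend, given as a description only. At an unadjusted p below 0.05, 615 (5.25%) did, and no Paf1 or Cdc73 set was among those. Without the trend and robust options of limma, 0 probe sets passed, and 516 had an unadjusted p below 0.05; the Ctr9 ratio was then 33.8.

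**Figure D3:**
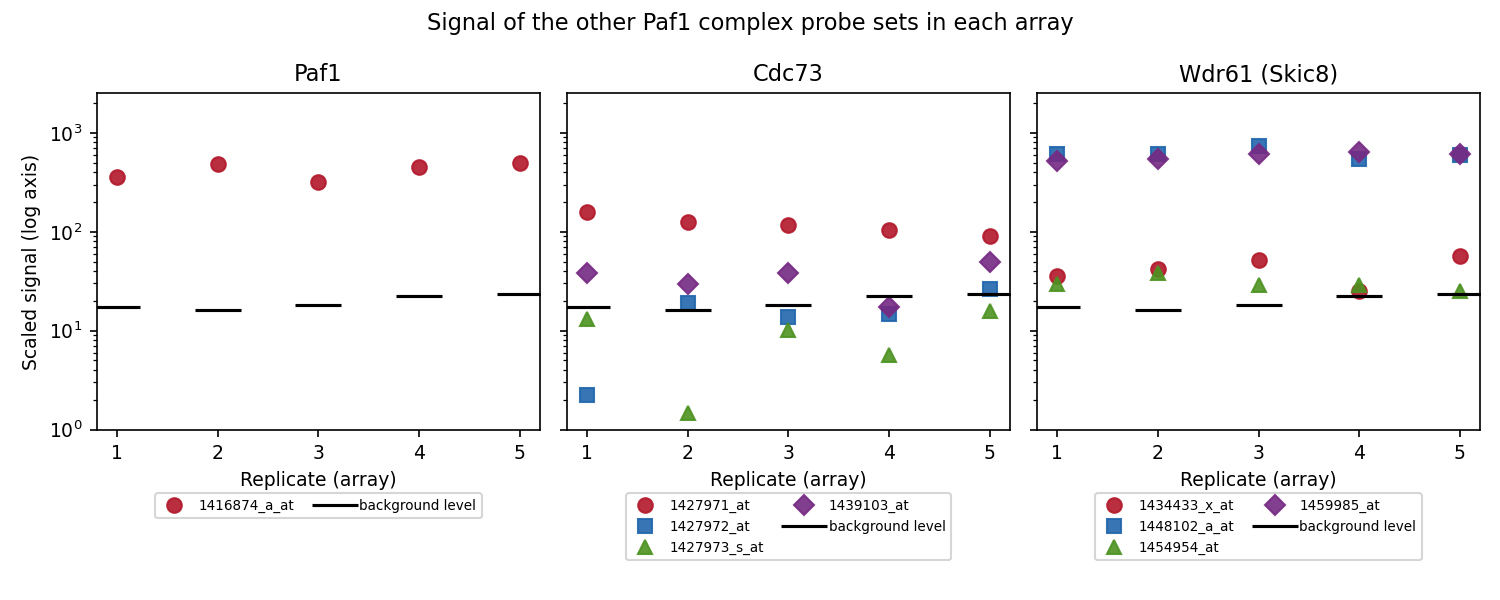
Scaled signal (log axis) of the probe sets of Paf1, Cdc73 and Wdr61 in each array, with a black dash for the background level. The Paf1 set runs from 318 to 494, the highest Cdc73 set from 90.8 to 158 and the highest Wdr61 set from 539 to 741, and none of these falls in replicate 3 as the Ctr9 set does.

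The probe sets of the subunit gene Wdr61 farthest above background were even across the arrays. Its probe set 1448102_a_at gave 617, 616, 741, 539 and 604 in replicates 1 to 5, and replicate 3 was the highest. The set 1459985_at gave 516, 546, 616, 641 and 614. Both lay far above the background level in every array. Their mean excesses of 5.00 ± 0.16 and 4.92 ± 0.15 log2 units passed (limma, adjusted p = 1.12e-21 and 4.71e-22). The set 1434433_x_at was less even, from 25.1 in replicate 4 to 57.5 in replicate 5, with an SD of 0.47 log2 units against a median of 0.30 over all called probe sets. It (42.4 ± 12.9) and 1454954_at (30.2 ± 4.60) passed as well (limma, adjusted p = 4.58e-05 and 0.0111). Across its 4 sets the profiles differed by 0.21 to 0.50 log2 units. Pairs of Cdc73 sets differed by 0.62 to 2.01, and the Ctr9 pair 1422680_at and 1448076_at by 0.11. The value of 0.62 is that of the Cdc73 pair with both sets above background. Every other Cdc73 pair includes a set that was not above it. Ctr9 pairs that include 1422679_s_at differed more than the Wdr61 pairs, which follows from how that set was picked.

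In all, 6 of the 9 member probe sets were above background, against 51.0% of the 20380 probe sets tested. For Paf1 and Cdc73, which were not picked for their own values, it was 3 of 5. The 3 Ctr9 sets in that count are 1422679_s_at (excess 4.88), 1422681_at (1.87) and 1422680_at (1.05). The excess of 1448076_at was 0.13. All 3 measured genes had at least 1 probe set above background, against 54.1% of 12393 genes. With casein kinases and interferon receptors added to the background families, which raised the level to between 122 and 168, Paf1 alone was called, with an excess of 1.498 log2 units. The Ctr9 set 1422679_s_at then had a larger excess, 1.95 log2 units, and was not called. That raised level rests on 212 probe sets in place of 181. The added ones include a casein kinase set, that of Csnk1d, with a median log2 signal of 6.89 outside replicate 3. On that scale the first level was 4.02 to 4.55. The raised level thus takes in genes well above the first level, and which level serves better was not tested.

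No profile set Paf1 or Cdc73 apart from most other genes. Of 11709 candidate probe sets, 8473 came within 0.5 log2 units of the Paf1 profile, and the closest were the small GTPase gene Arf1 (0.03), the cardiac actin gene Actc1 (0.06) and Gpn2 (0.06). For the Cdc73 set 1427971_at it was 8335 of 11708, led by Paxip1, Aen and Clic4 at 0.06 each. For Ctr9 the count was 1 of 11706.

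Genes that act with the Paf1 complex were mostly above background. RNA polymerase II, the enzyme it accompanies, had 11 of 11 measured subunit genes above background, where 54.1% of all genes were, with a median excess of 3.25 log2 units against 0.86 over all genes. Polr2g (673 ± 143), Polr2m (657 ± 113) and Polr2b (487 ± 63.8) lay farthest above it. Genes of transcript end processing gave 15 of 15 (median excess 4.08), with the cleavage factors Cpsf4 (1413 ± 328), Cpsf7 (1200 ± 187) and Cpsf3 (703 ± 144) farthest above.

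Pausing and elongation factors gave 19 of 22, with a median excess of 1.95. They included Supt16, a subunit of the histone chaperone FACT (1494 ± 331), the elongation factor Tcea1 (958 ± 153) and Supt6, a histone chaperone that travels with the polymerase (703 ± 136). Cdk12 (25.8 ± 8.20) and Ccnk (24.1 ± 6.64), a kinase and its cyclin, were not called, and neither was Eaf2 (11.2 ± 7.47). Genes of H2B ubiquitination gave 7 of 8. The ubiquitin-conjugating enzyme Ube2b (679 ± 108) and the ligase subunit Rnf20 (334 ± 71.2), which add the mark, were among them with Eny2 (782 ± 140) and Wac (753 ± 132). The deubiquitinase Usp22 (7.37 ± 2.70) was not.

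The COMPASS and histone methylation genes gave 9 of 10, led by Dpy30 (761 ± 137), Kmt2a (566 ± 70.8) and Wdr82 (557 ± 192), with the methyltransferase Kmt2d (8.62 ± 5.41) not called. The SKI complex and RNA exosome gave 11 of 12. Beside Wdr61, the exosome subunit Exosc9 (443 ± 110.0) and the exosome helicase Mtrex (428 ± 55.7) were farthest above, and the SKI helicase gene Skiv2l (2.86 ± 3.55) was not called. The 3 genes of the Paf1 complex, Ctr9 included, had a median excess of 4.42. At the raised background level the counts were 5 polymerase subunits, 8 elongation factors, 5 COMPASS genes, 7 SKI and exosome genes, 6 genes of H2B ubiquitination and 10 of end processing, when 23.3% of all genes were called. Low signal does not show that a transcript is absent, since some probe sets bind poorly.

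**Figure D4:**
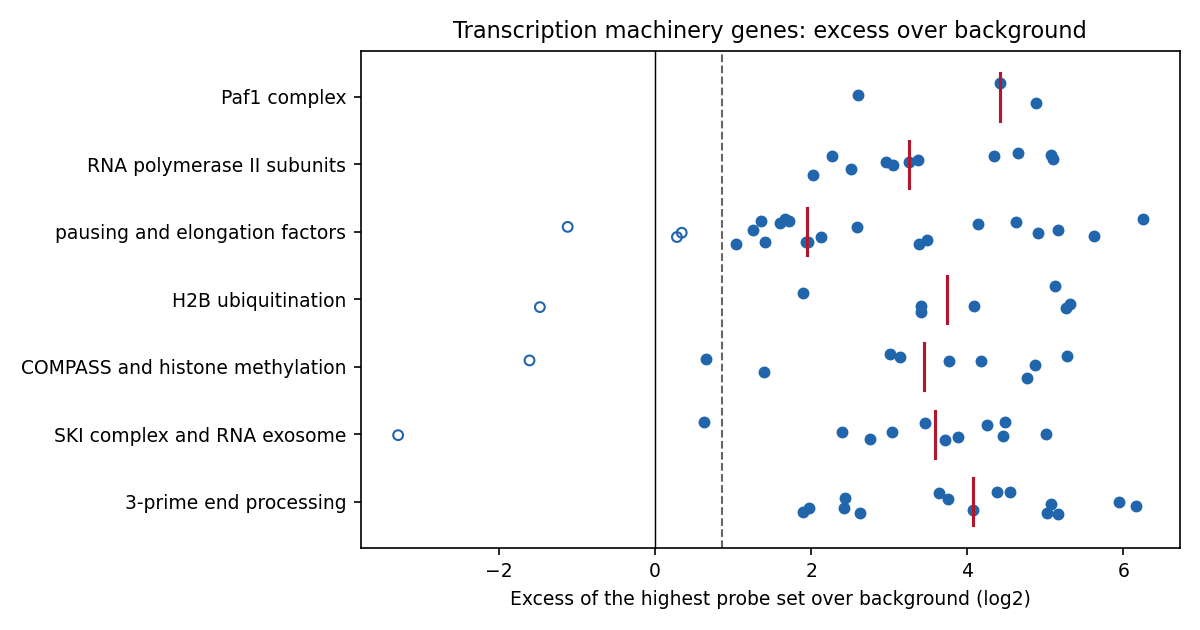
Excess over background (log2) of the highest probe set of each gene, for the Paf1 complex and 6 lists of related genes; filled points passed the test, open points did not, red bars are list medians, the solid line is the background level and the dashed line is the median of all genes at 0.86. The 3 measured genes of the Paf1 complex are filled, and 6 genes of the other lists are open; probe sets differ in binding, so positions do not rank the lists by abundance.

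No probe set of the 6 lists of related genes was lower by 3 log2 units in replicate 3, against 0.0880% over the whole table. Of 113 tested, 0 passed the F test against the limma trend, against 0.111% over the table. At an unadjusted p below 0.05 there were 8, against 5.25% over the table. With shares so low over the table, the absence of drops and calls among so few probe sets says little about these genes. Of the 19 pausing and elongation factors above background, 10 were lowest in replicate 3, as were 5 of the 9 COMPASS genes. Of all 10401 probe sets above background, 21.9% were lowest in that array. That share takes every probe set, while the list counts take for each gene the set farthest above background, so the units differ. The median deviation of these lists in replicate 3 was -0.20 and -0.27 log2 units, and the lowest single values were -1.83 for Mllt1 and -0.78 for Cxxc1. For the polymerase subunits it was 1 of 11, for H2B ubiquitination 1 of 7, for the SKI complex and exosome 3 of 11, and for end processing 3 of 15.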

How the data were processed

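Per the labels, 5 arrays of 1 wild-type group were hybridised. The deposited intensity values, 1 per probe set and array, were made with GCOS (Affymetrix's software) per the submitters' processing notes; the algorithm and release are not given in the sources used here. After trimming the lowest and highest 2%, the mean was 150.1 on every array, so arrays had been scaled alike. No present calls were used.

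Of 22690 probe sets, 64 controls were left out. Of the other 22626, 20380 carried 1 gene, 691 several and 1555 none in the platform annotation. Of the sets with 1 gene, 20351 were matched to RefSeq by gene identifier and took its symbol. Signals were floored at 1 and taken to log2. Detection was a one-sided limma (version 3.58.1, R 4.3.3) intercept fit over 20380 probe sets with trend and robust options. Spread between arrays was an F test against the limma trend over 11710 probe sets with a mean above the level. Both used Benjamini-Hochberg adjustment and a threshold of 0.05, and both were tested on simulated data.

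The members, lists and tests were chosen with earlier results of these data known. The text names all member probe sets, the 3 genes of each list farthest above background and those not called. It also names the 5 largest drops in replicate 3 and the profiles closest to each member. Mapkbp1, Rnf20, Eny2, Wac, Eif2s3y, Pclaf, Csnk1d, Mllt1, Cxxc1 and the neighbours of Ctr9 were named beside the rule after their values were seen. This holds where the rule did not already name them. Alternatives were other background levels, a floor of 16, quantile normalization, other moderation, filters and leaving out each replicate. The number of arrays limits the precision.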

Additional observations from a re-analysis of the deposited data

Results flagged for a closer look

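The Ctr9 set 1422679_s_at was at 56.4 in replicate 3, with a gap to the next array of 0.89 of the range in log2. This is the value that Ctr9 was picked for, so it is no separate sign. The Ctr9 sets 1422680_at (66.2) and 1448076_at (34.6) were both highest in replicate 4, with gaps of 0.74 and 0.82. The second of these was not above background over the arrays. The Cdc73 set 1427972_at was at 2.23 in replicate 1, with a gap of 0.74, and it was not above background either. The gaps were computed for 13 probe sets, Wdr61 included. Chance alone marks about 1 in 20 such groups, and since the Ctr9 sets were picked from these arrays, their number is not read against that rate.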

How the results depend on the processing

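The drop of the Ctr9 set 1422679_s_at was -4.18 under quantile normalization and -4.27 to -4.16 when single other replicates were left out. With casein kinases and interferon receptors in the background, 1 member probe set of 1 gene was called (all probe sets 4054, all genes 2890). The lists then had 5 polymerase subunits, 8 elongation factors, 5 COMPASS genes and 7 SKI and exosome genes, 6 genes of H2B ubiquitination and 10 of end processing, and 6 probe sets varied. The Ctr9 set 1422679_s_at kept an excess of 1.95 but was not called. The excess of the Ctr9 sets 1422680_at and 1422681_at became -1.88 and -1.06, and that of the Cdc73 sets 1427971_at and 1439103_at -0.33 and -2.17. At the 99th percentile 1439103_at had -0.10, and 4 member sets were called. The number of varying probe sets was 39 with a floor of 16, 47 with no minimum mean, 0 without trend and robust options (0 of the complex), and 8 to 28 without single replicates (0 to 1 of the complex, 0 without replicate 3). With plain _at sets alone, 6685 probe sets and 7 polymerase genes were called, 0 sets of the complex varied, since 1422679_s_at is left out, and drops of 3 log2 units numbered 3, 5 and 10 in replicates 2, 3 and 4. With a median of at least 500 elsewhere, added after the data were seen, they numbered 0, 0, 1, 3 and 0 in replicates 1 to 5. Causes other than the smaller set tested were not tested. No paired analysis was possible because all 5 samples belong to 1 group.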
